A study of Homo sapiens with 6 samples.

Results

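Immune checkpoint ligands are surface or secreted molecules by which a cell engages inhibitory or stimulatory receptors on lymphocytes and phagocytes. The 10 genes examined here were chosen by symbol, as the rows of the deposited count table named CD274, PDCD1LG2, CD276, VTCN1, CD47, PVR, LGALS9, TNFRSF14, CD80 and HHLA2, and all 10 were found among its 36517 genes. Of these, 5 had enough counts to be tested and 5 did not. mRNA was sequenced in MDA-MB-453, a human breast cancer cell line of luminal type. In one group the cells carried a lentivirus with a negative-control hairpin (control, n = 3), and in the other a lentivirus whose hairpin targets tRF-1-Ser (shtRF, n = 3). Both were collected at day 3. tRF-1-Ser is a small RNA released from the trailing end of a precursor of serine transfer RNA. These mRNA libraries do not measure it, so the knockdown could not be checked here and the groups rest on their labels. The study reports that it checked the efficiency of its knockdown models by qPCR. The study describes the transduced cells as stable lines and the sequenced replicates as biological, and does not say that the replicates came from separate transductions, so p-values measure the spread between these libraries, which may be partly technical.

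The ligands act by different routes. CD274 (PD-L1) and PDCD1LG2 (PD-L2) bind the receptor PD-1 on activated T cells and dampen their signalling, and interferon gamma induces CD274 by a route that begins with the kinases JAK1 and JAK2 and ends with the transcription factor IRF1. CD276 and VTCN1 belong to the same immunoglobulin family and restrain T cells through receptors that are less well known. CD47 binds SIRPA on macrophages and tells them not to engulf the cell. PVR engages TIGIT, CD96 and CD226 on T cells and natural killer cells, LGALS9 is a secreted galectin that binds HAVCR2, and TNFRSF14 engages BTLA and CD160. CD80 binds CD28 and CTLA4, and HHLA2 binds TMIGD2 and KIR3DL3.

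In shtRF, CD274 rose about 2.24-fold and VTCN1 about 2.64-fold, while CD47 dropped to 0.583 of its control level. PVR, the most abundant of the 10, was 1.14-fold higher by a margin that few alternative settings kept. TNFRSF14 was measured but its change was smaller than its error. PDCD1LG2, CD276, LGALS9, CD80 and HHLA2 were too low to test. In edgeR's quasi-likelihood test, at an adjusted p under 0.05, shtRF was therefore higher for 3 of the 5 tested ligands and lower for 1. Over all 19628 tested genes the same rule called 20.6% higher and 18.9% lower, so a change by itself was common in these libraries, and the count over 5 genes was not tested against that background. The median log2 fold change of the 5 tested ligands was 0.36, beside -0.0025 over all tested genes. With 5 genes this median is the value of TNFRSF14 alone, which was not called, so it shows no shared shift of the ligands.

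The promoters of the 3 ligands with the largest tested changes are shown so that the letters known to be read by regulators described below can be seen. RefSeq windows on GRCh38.p14, from 250 bases before to 50 bases after the annotated start, were given for 9 of the 10 ligands, in 12 windows. PDCD1LG2 was not matched. Windows are written 5′ to 3′ on the gene's strand, and capitals mark every match to 1 of 7 motifs searched on both strands: AP-1 (TGANTCA), E-box (CACGTG), the AHR element XRE (GCGTG), the interferon gamma element GAS (TTCNNNGAA), IRF (GAAANNGAA), the hypoxia element HRE (ACGTG) and kB (GGGANTTTC). Any E-box also holds an HRE match.
CD274, chr9:5450292-5450591, plus strand: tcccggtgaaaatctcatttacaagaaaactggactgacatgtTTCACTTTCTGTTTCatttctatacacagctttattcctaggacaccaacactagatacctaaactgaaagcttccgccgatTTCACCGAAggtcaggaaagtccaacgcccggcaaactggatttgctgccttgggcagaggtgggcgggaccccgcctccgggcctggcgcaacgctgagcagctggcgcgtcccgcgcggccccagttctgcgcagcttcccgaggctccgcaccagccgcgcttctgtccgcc
VTCN1, chr1:117210878-117211177, minus strand: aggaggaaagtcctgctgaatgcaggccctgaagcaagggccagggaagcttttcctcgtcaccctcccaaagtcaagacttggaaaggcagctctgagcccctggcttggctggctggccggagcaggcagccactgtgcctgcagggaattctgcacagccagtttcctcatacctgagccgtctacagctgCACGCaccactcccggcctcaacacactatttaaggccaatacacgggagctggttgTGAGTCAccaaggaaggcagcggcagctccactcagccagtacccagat
CD47, chr3:108090982-108091281, minus strand: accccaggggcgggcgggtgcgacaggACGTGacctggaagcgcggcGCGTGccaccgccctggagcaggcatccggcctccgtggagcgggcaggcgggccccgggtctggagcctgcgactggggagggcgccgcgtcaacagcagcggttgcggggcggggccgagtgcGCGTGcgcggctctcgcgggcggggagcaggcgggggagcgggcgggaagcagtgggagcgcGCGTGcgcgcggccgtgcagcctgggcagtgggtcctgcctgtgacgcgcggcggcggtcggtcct

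The CD274 window held a pair of overlapping IRF matches beginning 207 and 201 bases before the start and 1 GAS match beginning 125 bases before it. Of all 35116 promoter windows of the same length, 8.11% held an IRF match and 7.66% a GAS match. The VTCN1 window held 1 AP-1 match, beginning at the second base of the transcript, and 1 XRE match beginning 56 bases before the start. AP-1 letters occur in 7.71% of all windows. The CD47 window, of which 79.0% was G or C, held 3 XRE matches and 1 HRE match, and none of the other motifs. XRE letters occur in 36.5% and HRE letters in 21.4% of all windows. No window of the 9 ligands held an E-box, found in 7.26% of all windows, or a kB match, found in 1.28%. A match of letters is a description of the window and does not show that a factor binds there.

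CD274 lies on chromosome 9 (5450503 to 5470566, plus strand, GRCh38). Its counts were 34, 48 and 42 in control and 78, 106 and 70 in shtRF. As counts per 1000000 with TMM factors (CPM), these were 0.523, 0.636 and 0.526 in control and 1.11, 1.54 and 1.13 in shtRF, so all 3 shtRF libraries lay above all 3 control libraries. The log2 fold change was 1.16 ± 0.27 (SE, edgeR adjusted p = 0.00129), a fold of 2.24 with a 95% interval of 1.56 to 3.22. The call held under each of 15 alternative settings, with adjusted p-values from 0.000167 to 0.0153. Its level was low in both groups, at 0.139 ± 0.0168 counts per kilobase of exon per 1000000 library counts (RPKM) in control and 0.301 ± 0.0524 RPKM in shtRF (SD, n = 3). Both mates of a read pair seem to have been counted, as 74.2% to 77.1% of the counts between 1 and 4 were even in each library, so the number of fragments behind a CD274 count may be smaller than the count. With all counts halved and rounded down the call remained. PDCD1LG2 (chromosome 9, 5510570 to 5571254), the other ligand of PD-1, had 4 counts in control replicate 2, 1 count in shtRF replicate 1 and 0 counts in the other 4 libraries.

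VTCN1, on chromosome 1 (117143587 to 117210960, minus strand), had the largest change among the tested ligands. It had 215, 252 and 293 counts in control and 588, 672 and 566 in shtRF. These were 3.31, 3.34 and 3.67 CPM in control and 8.37, 9.79 and 9.13 CPM in shtRF, and the groups did not overlap. The log2 fold change was 1.40 ± 0.11 (SE, edgeR adjusted p = 1.24e-09). CD276 (chromosome 15, 73683966 to 73714518), its relative, had 14, 6 and 31 counts in control and 2, 0 and 2 in shtRF, which is under the filter on low counts. All 3 control libraries were above all 3 shtRF libraries, but the control libraries differed widely among themselves. Summed over libraries, 51 counts in control and 4 in shtRF gave a ratio of control to shtRF of 12.1 for the depths of the libraries, with a 95% interval of 4.43 to 45.9 that covers counting error only and takes every count as independent, which counts of both mates are not. With no filter beyond 1 count, edgeR put CD276 at -3.41 ± 0.91 on the log2 scale (SE, adjusted p = 0.00131). DESeq2, whose own filter kept the gene, gave -3.51 (adjusted p = 0.00708). As nearly all its counts lay in control, CD276 passed that filter through control, and a call there could hardly be other than lower.

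CD47 was the only ligand called lower among the 5 that passed the filter. It lies on chromosome 3 (108043298 to 108091025, minus strand) and had 954, 1034 and 1114 counts in control and 522, 581 and 545 in shtRF. These were 14.7, 13.7 and 14.0 CPM in control and 7.43, 8.46 and 8.79 CPM in shtRF, so every shtRF library lay below every control library. The log2 fold change was -0.78 ± 0.09 (SE, edgeR adjusted p = 3.3e-07), and it kept its direction and its call under all 15 alternatives. Among the 5 tested ligands, 3 had all shtRF libraries above all control libraries in CPM, 1 had them all below, and 1 overlapped. Over all tested genes these shares were 24.9% above and 23.8% below.

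PVR, on chromosome 19 (44643798 to 44663583, plus strand), had 1404, 1628 and 1880 counts in control and 1708, 1672 and 1683 in shtRF. In CPM the control libraries stood at 21.6, 21.6 and 23.5 and the shtRF libraries at 24.3, 24.3 and 27.1, so the groups lay apart by a narrow gap. In RPKM, which was not adjusted by TMM factors, control replicate 3 (6.77) lay above shtRF replicate 2 (6.65). The log2 fold change was 0.18 ± 0.07 (SE, edgeR adjusted p = 0.0423). The call was lost in 12 of 15 alternatives, including DESeq2 (adjusted p = 0.0651), upper quartile scaling (0.108) and leaving out any library other than control replicate 3 (0.0539 to 0.223).

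TNFRSF14 (chromosome 1, 2555639 to 2565382) had 26, 21 and 18 counts in control and 34, 28 and 16 in shtRF. The groups overlapped, as shtRF replicate 3 had fewer counts than any control library. The log2 fold change was 0.36 ± 0.42 (SE, edgeR adjusted p = 0.541), with a 95% interval of -0.47 to 1.20, so neither a fall to 0.722 of the control level nor a rise of 2.29-fold lies outside it. It shares 13.4% of its exonic sequence with a noncoding gene on the opposite strand. LGALS9 (chromosome 17, 27629798 to 27649560) had 11, 10 and 2 counts in control and 18, 2 and 0 in shtRF. Its near-identical copies LGALS9B and LGALS9C had at most 30 and 10 counts in any library, and how reads were split between the 3 genes is uncertain. CD80 (chromosome 3, 119524293 to 119559602) had 2, 1 and 0 counts in control and 6, 1 and 1 in shtRF, and it shares 24.9% of its exonic sequence with TIMMDC1. HHLA2 (chromosome 3, 108296490 to 108378285) had 2 counts in control replicate 3 and 0 in the other 5 libraries. A count of 0 allows up to 3 counts, or 0.038 to 0.0472 CPM in these libraries, which covers counting error only. For the summed counts, the 95% interval of the ratio of shtRF to control, again for counting error only, was 0.00537 to 2.67 for PDCD1LG2, 0.479 to 1.75 for LGALS9 and 0.677 to 16.5 for CD80, and reached up to 5.63 for HHLA2. Each of these holds a ratio of 1.

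**Figure D1:**
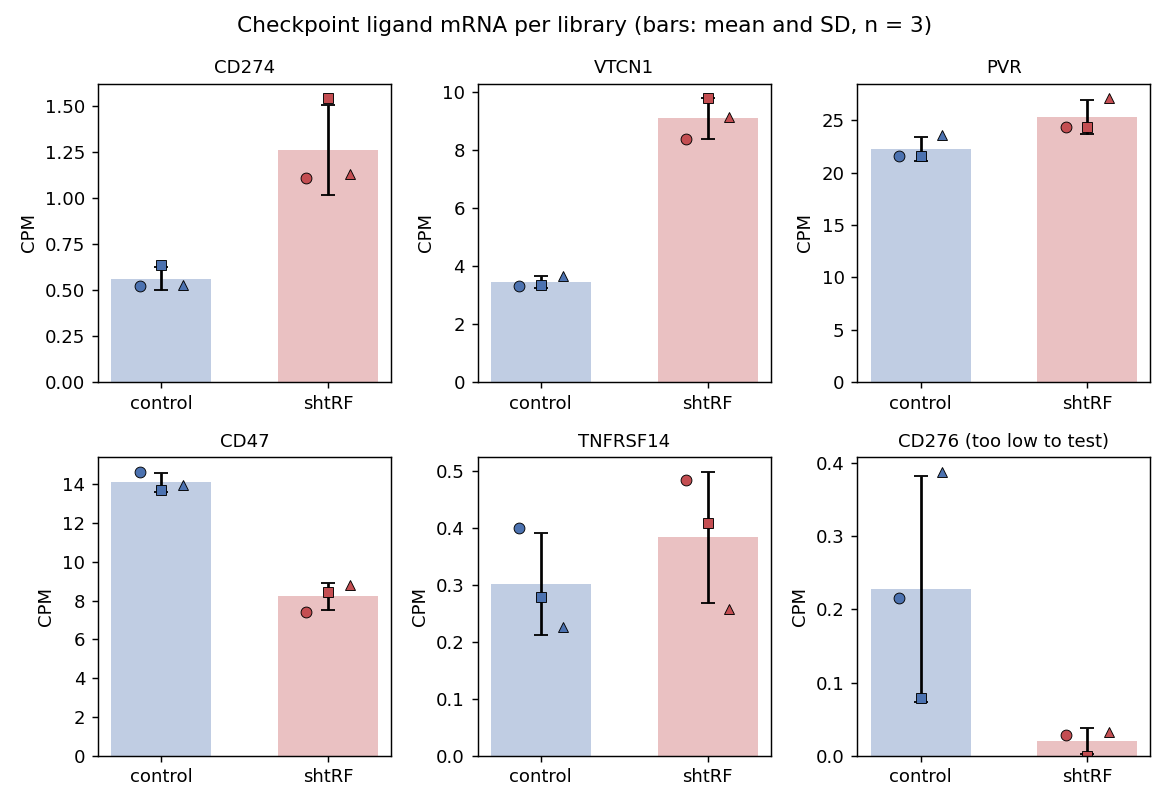
CPM of the 5 tested ligands and of CD276 in each library; bars give the mean and error bars the SD over 3 libraries, and circles, squares and triangles are replicates 1, 2 and 3. The shtRF libraries of CD274 (1.11 to 1.54 CPM) and VTCN1 (8.37 to 9.79 CPM) lie above all control libraries and those of CD47 (7.43 to 8.79 CPM) below them, while those of TNFRSF14 overlap.

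Levels were compared between genes in RPKM. In control the order was PVR at 6.43 ± 0.295, CD47 at 1.82 ± 0.0622, VTCN1 at 1.16 ± 0.062 and CD274 at 0.139 ± 0.0168 RPKM (SD, n = 3). In shtRF it was PVR at 7.05 ± 0.445, VTCN1 at 2.95 ± 0.16, CD47 at 1.02 ± 0.0692 and CD274 at 0.301 ± 0.0524 RPKM. VTCN1 and CD47 thus changed places, and no library of one of these 4 genes overlapped the next in the order within its group. From TNFRSF14 (0.0493 RPKM in control) downwards, the libraries of each gene overlapped those of the next, so neighbours in the order of the lowest 6 were not separated. Of the RPKM summed over the 10 ligands, PVR held 66.5% ± 0.95 in control and 61.7% ± 2.18 in shtRF, VTCN1 11.9% ± 0.275 and 25.8% ± 1.61, CD47 18.8% ± 1.02 and 8.95% ± 0.372, and CD274 1.44% ± 0.206 and 2.64% ± 0.509. The level of CD274 was 6.85% to 8.92% of that of CD47 in the control libraries and 24.7% to 35.1% in the shtRF libraries.

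**Figure D2:**
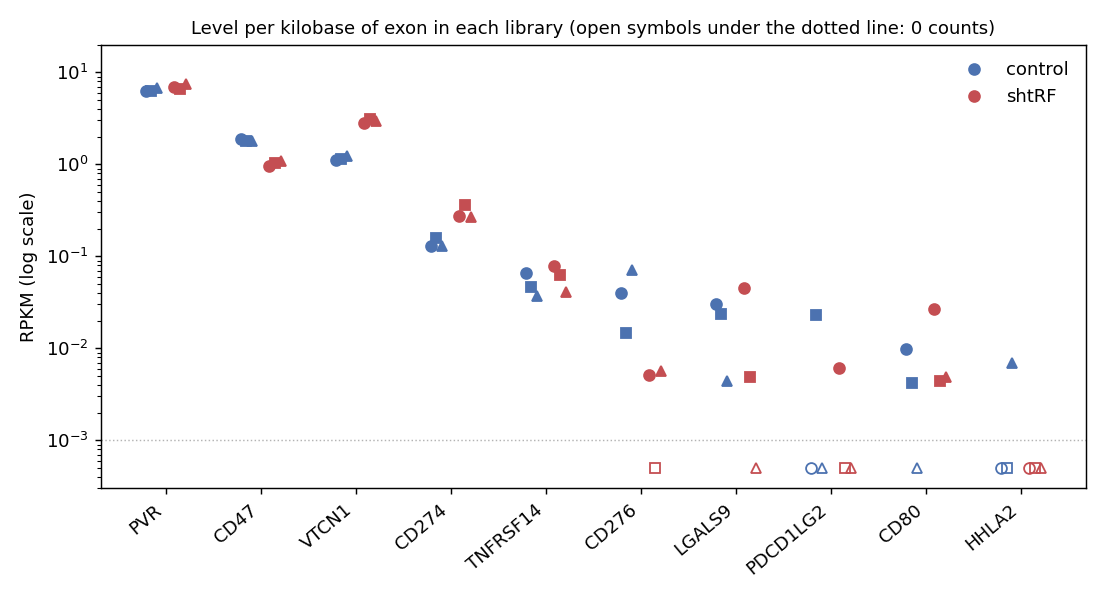
RPKM of all 10 ligands in each library on a log axis, ordered by the control mean; blue is control, red is shtRF, and open symbols under the dotted line are libraries with 0 counts. PVR stays highest (6.43 RPKM in control, 7.05 in shtRF), VTCN1 passes CD47 in shtRF, and the 5 ligands at the right have counts near 0 in several libraries.

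Other ligands that engage the same or related receptors were examined as a list of 42 genes, of which 25 could be tested. In shtRF 4 of them were higher and 8 were lower, and the list had a median log2 fold change of -0.05. Among all tested genes the shares were 20.6% higher and 18.9% lower, and no list was tested against them. The largest falls were those of LGALS1, a secreted galectin, from 7.74 ± 0.137 to 3.09 ± 0.108 RPKM (SD, log2 fold change -1.27 ± 0.11, SE, adjusted p = 3.56e-09), and of CD24, which binds SIGLEC10 on macrophages, from 23.0 ± 1.57 to 10.5 ± 0.51 RPKM (-1.08 ± 0.06, adjusted p = 3.49e-12). NCR3LG1, a ligand of natural killer cells, fell by 0.84 and BTN3A1, a butyrophilin that gamma delta T cells respond to, by 0.82 on the log2 scale (adjusted p = 5.87e-05 and 7.61e-06). CD47 and CD24, both read by macrophages as signals not to engulf the cell, were each lower in every shtRF library. The same held for 23.8% of all tested genes, and a joint change of CD47 and CD24 was not tested. The 4 that were higher, LGALS3, NECTIN4, SEMA4A and NECTIN2, each had a log2 fold change under 0.58, so none is among the genes the rule names, and their number was 2 under upper quartile scaling and under limma-trend on either RPKM scale, and without shtRF replicate 1 or 3.

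**Figure D3:**
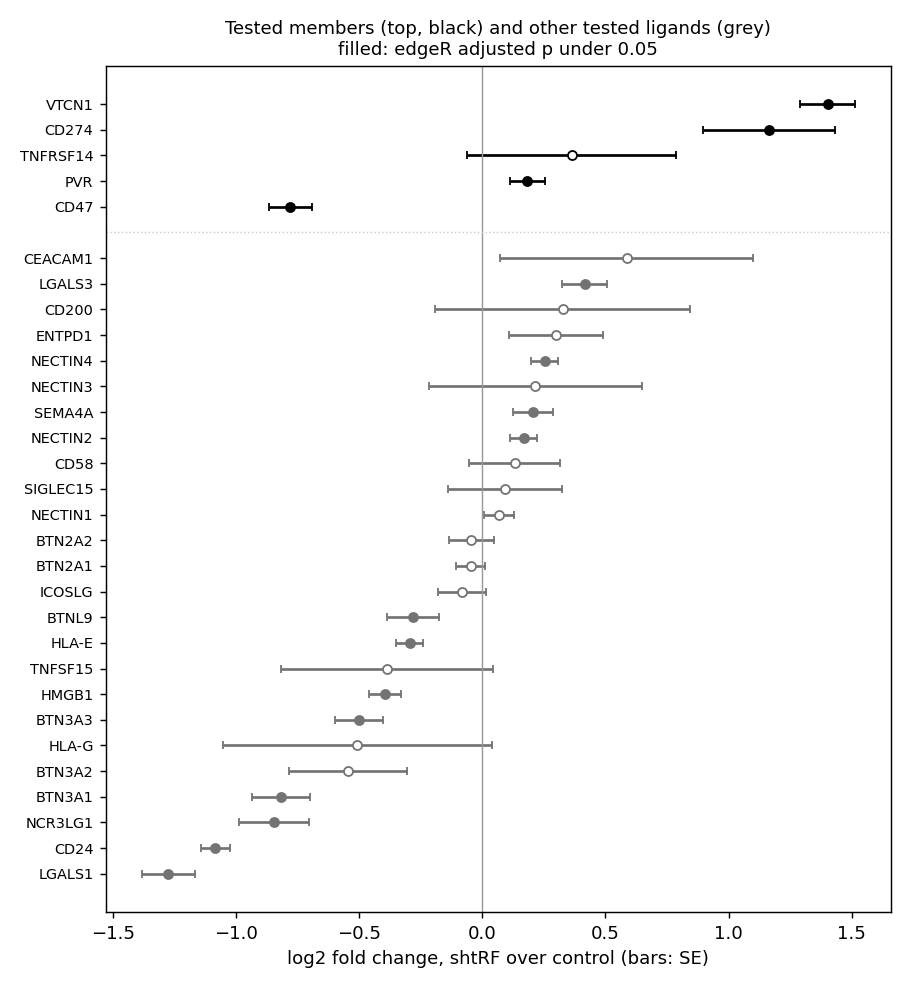
Log2 fold change of shtRF over control with its SE for the 5 tested ligands (black) and the 25 other tested ligands (grey); filled points have an edgeR adjusted p under 0.05. VTCN1 (1.40) and CD274 (1.16) lie to the right of all other ligands, and LGALS1 (-1.27) and CD24 (-1.08) lie furthest to the left, beyond CD47 (-0.78).

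Partners through which the ligands act were mostly near 0. Of 19 such genes 13 were too low to test, among them PDCD1 with at most 2 counts, TIGIT with at most 2 and BTLA with at most 6 in any library. THBS1, a secreted thrombospondin that binds CD47, was far more abundant than any of the ligands and rose from 103 ± 1.61 to 271 ± 9.24 RPKM (SD, n = 3), which is 1.45 ± 0.05 on the log2 scale (SE, adjusted p = 6.28e-15). CD47 mRNA and the mRNA of this partner therefore moved in opposite directions. SIRPA, the receptor of CD47, stood at 7.01 ± 0.205 RPKM in control and 6.05 ± 0.117 in shtRF (-0.16 ± 0.06, adjusted p = 0.0386).

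The list for the interferon route to CD274 held genes of the interferon gamma route and of type I interferon signalling, such as IFNAR2 and IRF7. Of its genes 19 of 20 were tested, with 6 higher, 5 lower and a median log2 fold change of 0.15. All tested genes gave 20.6% higher and 18.9% lower. IRF7, which drives type I interferon genes, fell by 0.67 and NLRC5, an activator of MHC class I genes, by 0.95 (adjusted p = 1.49e-05 and 2.56e-05). The kinase JAK2, a neighbour of CD274 on chromosome 9, rose from 1.39 ± 0.0521 to 1.86 ± 0.253 RPKM (log2 fold change 0.46 ± 0.10, adjusted p = 0.00066). JAK1 was higher by 0.21 ± 0.07 (adjusted p = 0.0222), a call lost in 7 of 15 alternatives, among them leaving out control replicate 1 (0.118), control replicate 3 (0.0798), shtRF replicate 1 (0.0676) or shtRF replicate 3 (0.0869). IRF1, the last step of the route, had overlapping groups and a log2 fold change of 0.15 ± 0.11 (adjusted p = 0.297). IFNAR2 rose by 0.81 and shares 48.4% of its exonic sequence with another gene.

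Of 28 other transcriptional regulators of CD274, 26 were tested, with 7 higher, 11 lower and a median of -0.14. Beside them, 20.6% of all tested genes were higher and 18.9% lower. MYC, which can activate CD274 and CD47, dropped from 7.13 ± 0.273 to 2.47 ± 0.157 RPKM (-1.48 ± 0.08, adjusted p = 2.51e-12). AHR, the receptor whose element XRE was searched for above, had 1.36, 1.59 and 1.45 RPKM in control and 4.75, 4.36 and 4.83 in shtRF (1.71 ± 0.08, adjusted p = 1.03e-13), with 39.2% of its exonic bases shared with a noncoding gene. The kinase CDK5 rose by 0.65, while the signal transducer STAT5B fell by 1.46, the stress-induced factor ATF3 by 1.14 and WWTR1, a Hippo pathway coactivator, by 0.78. The control and shtRF libraries of ATF3 overlapped. The largest fall of the list was that of EGFR, with 72, 93 and 120 counts in control and 20, 14 and 6 in shtRF. Its log2 fold change was -2.69 ± 0.35 (SE, edgeR adjusted p = 1.95e-06). FOS was also called lower, at -1.18 (adjusted p = 0.0484). Both lay under the mean of 1 CPM that the rule for naming list genes asks for, as did CD274 itself at 0.911 CPM.

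Of 25 genes that act on the maturation or turnover of the ligand proteins all were tested, with 9 higher, 4 lower and a median of 0.01. Again, 20.6% of all tested genes were higher and 18.9% lower. CMTM6, which keeps the CD274 protein from being degraded, had 5.09, 4.80 and 5.25 RPKM in control and 8.19, 7.51 and 8.92 in shtRF, so the groups did not overlap (0.75 ± 0.07, adjusted p = 1.4e-08). The collagenase MMP13, which can cleave CD274 at the cell surface, fell by 1.19 (SE 0.12, adjusted p = 4.43e-08). Smaller called rises were those of COPS5 (0.49), HIP1R (0.45), PRKAA1 (0.42), CMTM4 (0.35), OTUB1 (0.30), ADAM10 (0.30) and BTRC (0.21). Smaller called falls were those of CDK4 (-0.37), CCND1 (-0.27) and STT3A (-0.14). B3GNT3 rose by 1.50 (edgeR adjusted p = 0.0167) at a mean of 0.275 CPM. The net effect of these changes on the ligand proteins was not tested. QPCTL, which modifies CD47 for binding to SIRPA, had overlapping groups (-0.19 ± 0.19, adjusted p = 0.477). Protein was not measured.

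**Figure D4:**
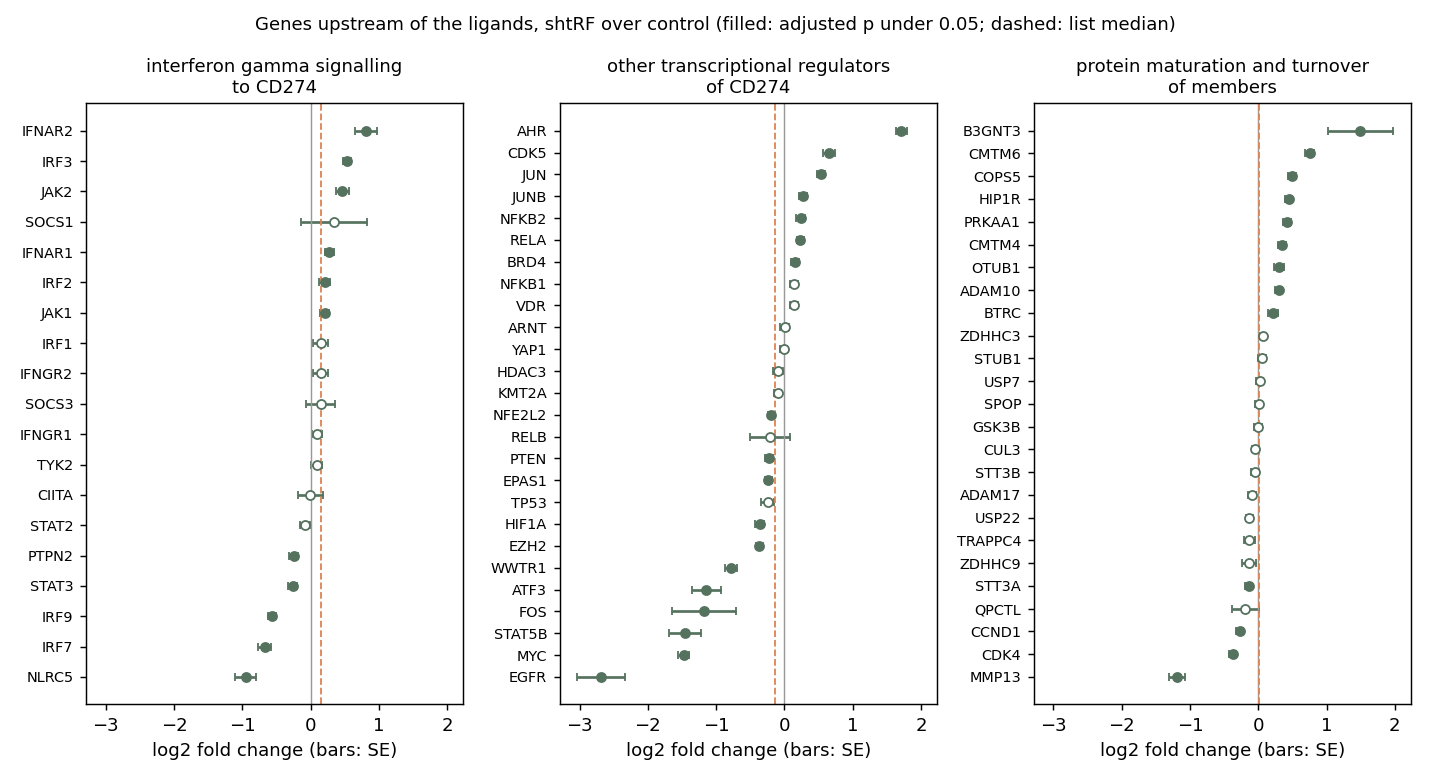
Log2 fold change of shtRF over control with its SE for the tested genes of the interferon route (19), the other regulators of CD274 (26) and the genes of protein maturation and turnover (25); filled points have an adjusted p under 0.05 and dashed lines are list medians (0.15, -0.14 and 0.01). EGFR (-2.69) lies furthest to the left. IRF7 and MYC also lie to the left and AHR, JAK2 and CMTM6 to the right of 0.

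Around CD274, 26 genes of the table lay within 500 kb and 8 of them were tested, of which 4 were higher and none lower, with a median log2 fold change of 0.22. ERMP1 rose by 0.56 ± 0.06 (SE, adjusted p = 4.24e-08), JAK2 as given above, KIAA2026 by 0.30 ± 0.06 (adjusted p = 0.000432) and RIC1 by 0.16 ± 0.06 (adjusted p = 0.0408), the last lost in 13 of 15 alternatives, including those that left out any 1 of the 6 libraries (0.0642 to 0.104). PLGRKT (0.16 ± 0.11), RLN2 (-0.18 ± 0.43), MLANA (-0.34 ± 0.38) and the noncoding RP11-207C16.4 (0.28 ± 0.30) did not pass the test. All 8 changes were smaller than that of CD274. Around VTCN1, 29 genes were tested and 2 were higher and 3 lower, and around CD47, 6 were tested and 1 was higher and 2 lower. For comparison, 20.6% of all tested genes passed as higher and 18.9% as lower. Whether the neighbours of any ligand departed from these shares was not tested, so the counts around CD274 do not show a regional rise.

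**Figure D5:**
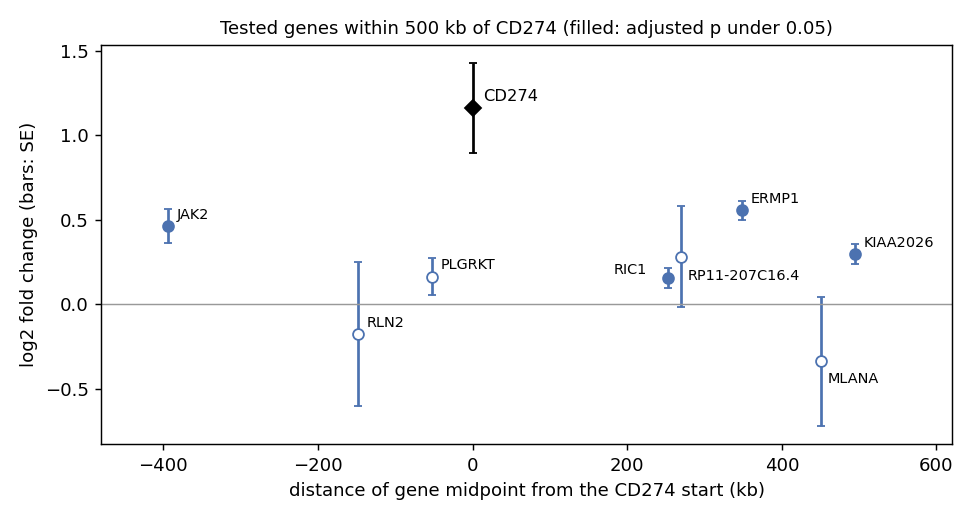
Log2 fold change with its SE of the 8 tested genes within 500 kb of CD274 against the distance of their midpoints from its start; filled points have an adjusted p under 0.05. CD274 (black, 1.16) lies above all of them, and the next highest are ERMP1 (0.56) and JAK2 (0.46).

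Across the 6 libraries, the 5 genes whose log2(CPM + 1) followed that of CD274 most closely were ZNF747 (Pearson r = 0.998), TOR1AIP1 (0.996), FAM43A (0.996), GMPPB (0.995) and CPOX (0.994), among 14699 tested genes with a mean of at least 1 CPM. All 5 were higher in shtRF, with log2 fold changes from 0.16 for GMPPB to 0.53 for FAM43A. As the libraries form 2 groups, 12.5% of these genes had an r above 0.9 with CD274, and this likeness is a description over 6 libraries. For VTCN1 r was 0.959, for PVR 0.673 and for CD47 -0.912.

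The markers of the line were present. All 11 luminal breast epithelial genes of the list were tested, at a summed level of 3280 to 3618 RPKM in control and 3985 to 4249 RPKM in shtRF, with 5 higher and 2 lower. The shares over all tested genes were 20.6% higher and 18.9% lower. KRT8 and KRT18 rose by 0.79 and 0.64 on the log2 scale, while KRT19, also a luminal keratin, had overlapping groups (0.04, edgeR adjusted p = 0.584). The 2 lower genes were ERBB2 (-0.19) and GATA3 (-0.14). Most of the summed level was XBP1, at 2215 ± 154 RPKM in control and 2643 ± 101 RPKM in shtRF (SD). Of 16 leukocyte markers 15 were found by symbol, of which 11 were too low to test, and PTPRC, found on all leukocytes, had at most 5 counts in any library. The summed leukocyte level was 2.61 to 3.20 RPKM in control and 2.88 to 4.26 RPKM in shtRF, most of it CD68, which shares 85.8% of its exonic bases with another gene. CD68 was the 1 leukocyte marker called, with a log2 fold change of 0.57 (edgeR adjusted p = 0.00143), a call lost under limma-trend on log2(RPKM + 1). The 3 other tested markers were not called, and the list median was -0.54. CD4 stood at 0.02, CD8A at -1.17 (adjusted p = 0.0635) and NKG7 at -1.10 (0.0977). For CD8A and NKG7, with at most 28 and 29 counts, every shtRF library lay below every control library. Of 10 stromal markers 9 were found by symbol, of which 6 were too low, and COL1A1 fell by 0.62, with a summed level of 3.10 to 3.72 RPKM in control and 2.09 to 2.22 RPKM in shtRF. In a bulk library a change in RNA per cell and a change in the share of cells that carry a transcript cannot be told apart.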

How the data were processed

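Total RNA of 6 libraries was made into strand-specific mRNA libraries and sequenced as read pairs. The authors deposited raw counts of reads per gene and, for part of the genes, RPKM values. Per the labels, Trimmomatic 0.36, featureCounts of Subread 1.5.1, edgeR 3.12.1 and GRCh38 were used. The aligner, the annotation release and the strand setting of the counting are not given in the sources used here. The deposited RPKM values equalled count divided by exonic length and library total (29946 of 29946 values, relative tolerance 0.0001), so RPKM was recomputed in that way for all genes. Library totals ran from 63541413 to 78917459 counts, and at this depth 5 ligands stayed under the filter.

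Counts were tested with edgeR 4.0.16 in R 4.3.3 (filterByExpr with a minimum count of 10, TMM, glmQLFit and glmQLFTest, group as the only term, Benjamini-Hochberg adjustment over 19628 genes). CPM are TMM-scaled, and intervals of fold changes are the estimate ± the normal quantile times the SE. Alternatives were other scalings and filters, halved counts, the replicate number as a block, DESeq2 1.42.0, limma-trend (limma 3.58.1) on log2(RPKM + 1) and log2(RPKM + 0.1), and leaving out each library. On simulated data edgeR recovered 86 of 100 genes changed 2-fold and 100 of 100 changed 4-fold, with 9 false calls among 19289 tested genes. Only these genes were changed there, equally up and down, with independent counts whose spread was set by level alone. In the deposited data 39.5% of tested genes were called and both mates seem to have been counted, so these figures may not carry over. Exonic overlap was computed from the coordinates in the count table, and promoters were read from RefSeq.

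The ligands and the gene lists were chosen with earlier results of these data known. Named are all 10 ligands; from each list those past an adjusted p of 0.05 that moved by at least 0.58 on the log2 scale at a mean of at least 1 CPM, at most 5 in each direction; JAK1, JAK2, IRF1, MYC, AHR, CMTM6 and QPCTL; the tested neighbours of CD274; and the 5 genes most like it. Of the other genes, SIRPA, PDCD1, TIGIT, BTLA, LGALS3, NECTIN4, SEMA4A, NECTIN2, PTPRC, CD68, HAVCR2, CD226 and CD4 were named after their values were seen. The same holds for EGFR, FOS, KRT19, ERBB2, GATA3, XBP1, CD8A, NKG7, IFNGR1 and IFNGR2. It also holds for HIP1R, PRKAA1, BTRC, COPS5, OTUB1, CMTM4, ADAM10, B3GNT3, STT3A, CDK4 and CCND1. Some genes were taken out of the lists once the tests had been run and are not reported here. No set test was run.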

Additional observations from a re-analysis of the deposited data

How the results depend on the processing

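CD274, VTCN1 and CD47 kept their direction and their call under all 15 alternatives, with log2 fold changes from 0.19, on log2(RPKM + 1), to 1.26 for CD274, from 0.87 to 1.45 for VTCN1 and from -0.82 to -0.48 for CD47. TNFRSF14 passed under none of them. PVR kept its direction but missed the threshold with upper quartile scaling (log2 fold change 0.15), no filter beyond 1 count (0.18), at least 10 counts in every library (0.17), DESeq2 (0.18), limma-trend on log2(RPKM + 1) (0.11) and on log2(RPKM + 0.1) (0.13), and halved counts (0.17), and ranged from 0.13 to 0.23 when 1 library was left out; the cause was not tested. The number of ligands lower was 2 rather than 1 with no filter and under DESeq2, and 1 to 2 when 1 library was left out, because CD276 then entered the test. Except with no filter, CD276 entered through its control counts, so a call could hardly be other than lower. The number higher was 2 or 3. With the replicate number as a block, 3 ligands were higher and 1 lower, as without it, and 4123 genes were higher and 3776 lower. Libraries of the same number deviated together with correlations of 0.0174 to 0.0592. Libraries of different numbers were not compared in this way, so whether the numbers pair the libraries was not settled. Over all genes, calls ranged from 2900 to 4123 higher and from 3053 to 4174 lower. Of 449 values of 30 other named genes under the alternatives, 429 gave the same direction and call and 20 lost the call (JAK1 in 7, RIC1 in 13). Depth limits the 5 untested ligands most, then TNFRSF14 (16 to 34 counts) and CD274 (34 to 106 counts), and a low RPKM scale compresses their changes.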

Other observations

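Some receptors usually studied on lymphocytes or myeloid cells had counts in this epithelial line. HAVCR2, which binds LGALS9, had 199, 390 and 306 counts in control and 334, 447 and 295 in shtRF, or 1.08 ± 0.291 and 1.37 ± 0.234 RPKM (SD, n = 3), more per kilobase than CD274 in either group. Its groups overlapped and its log2 fold change did not pass the test (edgeR adjusted p = 0.0529). CD226, which binds PVR, had 27, 13 and 14 counts in control and 32, 32 and 34 in shtRF (adjusted p = 0.0844), and CD4 had 40 to 63 counts in each library. PTPRC stayed at 5 counts or fewer in all 6 libraries. LGALS9B had 8, 2 and 10 counts in control and 30, 10 and 6 in shtRF, and LGALS9C had 8, 2 and 6 in control and 6, 10 and 2 in shtRF, and neither copy passed the filter on low counts.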
